A study of Mus musculus with 11 samples.

Results

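The genes of the integrin subunits and the laminin chains were examined in otospheres, cochlear sensory epithelia and embryonic stem cells of the mouse. Members were all probes of the array, other than controls, whose transcript accession belongs to an integrin subunit or a laminin chain in the RefSeq gene table, and each gene was represented by its brightest probe. There were 47 such probes for 36 genes (25 integrin, 11 laminin) among 20284 named genes on the array, of 38 such genes in the table. Itga10 and Itgae had no probe. Otospheres (OS) are floating spheres that grow when dissociated cells of the cochlear sensory epithelium are kept in suspension. The samples were secondary otospheres of the solid type, kept after 1 passage in serum-free medium with bFGF and IGF1, from newborn ICR mice. The cochlear sensory epithelia (CSE), which hold hair cells and supporting cells, were dissected from newborn ICR mice, with the cochleae of several animals pooled in a preparation. The embryonic stem cells (ES) were the line G4-2 (ES1) and the line D3 (ES2), each at passage 13, grown with LIF on gelatin without feeder cells, so that the 2 ES samples were also 2 lines. None of the groups carried a labelled mutation or transgene.

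An integrin is a receptor of the cell surface made of an alpha and a beta chain, which binds the matrix outside the cell and the actin or keratin skeleton inside it. A laminin is a cross-shaped trimer of an alpha, a beta and a gamma chain, and is the protein around which a basement membrane assembles. In the cochlea a basement membrane underlies the hair cells and supporting cells, and integrins hold the basal side of epithelial cells to it. Kalinin, a laminin that holds the chains of Lama3 and Lamb3, is the ligand of integrin alpha6 beta4 in the hemidesmosomes of stratified epithelia.

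The 11 arrays were of 1 colour, 6 of OS, 3 of CSE and 2 of ES, on 2 slides, and each slide held all 3 groups. OS1 and OS2 differed by less than the noise between spots of the same probe (0.946 times that noise), as did OS4 and OS5 (0.433 times), so each pair was averaged and counted as 1 sample, while other pairs within a group differed by at least 1.72 times the noise. This left 4 OS, 3 CSE and 2 ES samples. Between 55.1 and 71.6% of the probes of an array were well above background. Values are background-corrected, quantile-normalized signals on the log2 scale, so that a difference of 1 is a doubling, and signals of different genes cannot be ranked against each other. Differences were tested with limma, with p-values adjusted over the 47997 probes that exceeded the negative control spots on 2 arrays or more, and 0.05 was the threshold. All 36 genes had such a probe, since this filter is laxer than the scanner's own flag for signal well above background. Nothing in the labels says that OS samples came from separate cultures, so the p-values measure the spread between these samples. In bulk RNA, fewer cells of a type and less RNA per cell cannot be told apart.

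The tissue labels were set against marker genes. Of 8 embryonic stem cell markers, 7 were lower in OS than in ES and 7 in CSE than in ES. Of 8 supporting cell markers, 6 were lower in OS than in CSE, among them Sox2 and Hes5, and of 8 hair cell markers 5 were lower, among them Atoh1 and Pvalb. Of the 9 macrophage markers with a kept probe 6, and 6 of the 10 endothelial markers, were also lower in OS than in CSE. The mean level of the macrophage list, relative to each gene's own mean, was -0.86 to -0.45 in OS and 1.17 to 1.43 in CSE on the log2 scale, and that of the endothelial list was -1.65 to -0.59 in OS and 0.997 to 1.83 in CSE. Both lists were thus higher in every CSE sample than in every OS sample, although Ptprc, the leukocyte marker, was 5.62 to 5.88 in CSE and 5.65 to 5.78 in OS. Of 8 Schwann and satellite glia markers 4 were lower and 2 higher in OS, of 5 platelet markers 1 was lower, and of 9 mesenchyme markers 1 was lower, Col1a1, with OS samples that differed widely. The part of these cells in the results below was not tested unless a value is given.

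Otospheres carried more transcript of 10 of the 36 genes than the cochlear epithelia, and less of 2. Among the 10 were the laminin genes Lamb3 and Lama1 and the integrin genes Itga3, Itgb4, Itgav, Itga7, Itga5, Itgb1 and Itga1, with differences of 1.17 to 5.39 on the log2 scale. The 2 were Itga8 and Lamc3. The share of genes higher was 27.8%, against 4.84% of all probes tested and 7.17% of all named genes represented by their brightest probe. The share lower was 5.56%, against 6.19% of probes and 10.3% of named genes, and so was close to the background. The median difference over the 36 genes was 0.03, and over all probes it was 0.02. The samples of OS and CSE did not overlap for 16 genes (44.4%), against 23.4% of all probes. No share over named genes was taken for overlap, and for the calls above that share was larger than the share over probes.

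**Figure D1:**
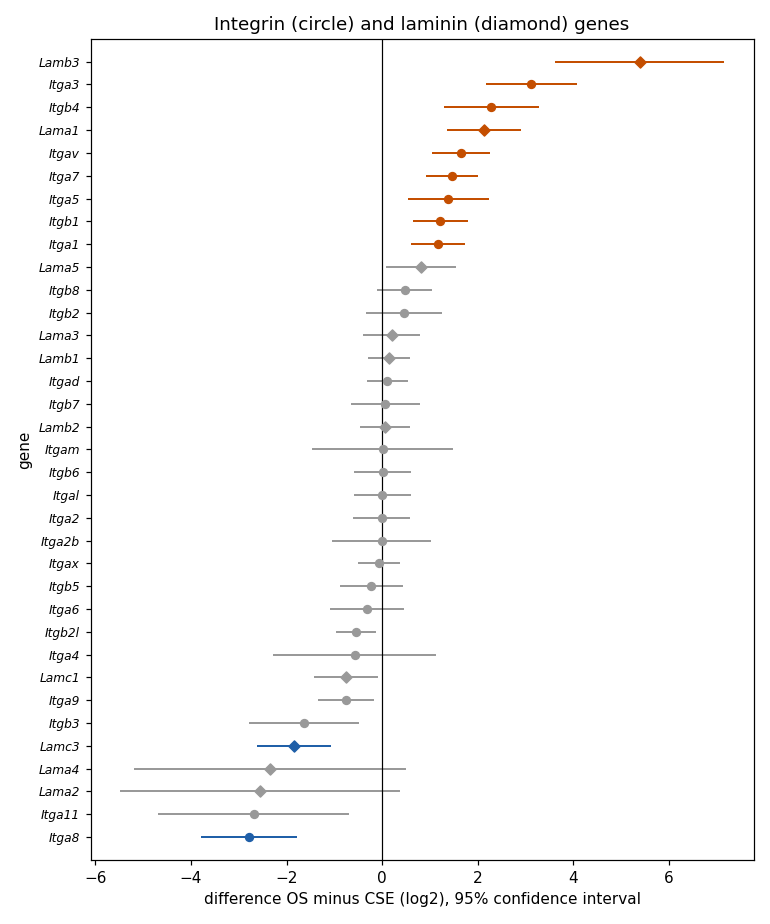
Difference between OS and CSE on the log2 scale for 35 of the 36 genes, with the 95% confidence interval from limma, ordered by size. Circles are integrin genes and diamonds laminin genes, orange marks genes higher in OS, blue the 2 lower, and grey the 24 that did not pass the threshold. Lamb3 stands apart at 5.39, and the widest intervals belong to Lama2 and Lama4.

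Lamb3, the beta chain of kalinin, showed the largest difference of the family. Its signal was 11.66 in OS1 and OS2, 11.04 in OS3, 13.18 in OS4 and OS5 and 13.55 in OS6. In CSE it was 6.56, 6.81 and 7.54. The lowest otosphere sample lay above the highest epithelium by several log2 units. The difference was 5.39 ± 0.77 (SE, n = 4 and 3), or 42.0-fold, with an adjusted p of 0.00272 from limma. The ES samples differed, with 9.40 in ES1 on the first slide and 6.60 in ES2 on the second. Each was also a different line, so line and slide cannot be told apart.

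Lama3, the alpha chain of the same trimer, did not differ in a way the test could show. It was 8.18, 7.56, 7.79 and 7.65 in OS, in the order given for Lamb3, and 7.98, 7.19 and 7.62 in CSE. The groups overlapped, with an interval of the difference from -0.38 to 0.78. A second, dimmer Lama3 probe gave 0.93 without passing (adjusted p = 0.109, limma), but its groups did not overlap. It was 6.48 to 7.43 in OS and 5.59 to 6.31 in CSE. Of these chains of kalinin, the beta chain transcript was thus higher in otospheres. For the alpha chain the probes differed in overlap and neither passed, so whether its transcript differed is uncertain.

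Itgb4, the beta chain that pairs with alpha6 alone and joins the keratin skeleton, was 12.21, 11.74, 12.97 and 13.15 in OS. In CSE it was 10.03, 9.81 and 10.85. All OS samples were higher, by 2.29 ± 0.43 (SE, n = 4 and 3; adjusted p = 0.00958, limma), which is 4.88-fold. Its partner Itga6 was bright in all groups, with 14.99, 13.96, 14.32 and 13.75 in OS and 15.02, 14.62 and 14.06 in CSE. The Itga6 groups overlapped, and the interval of the difference ran from -1.06 to 0.44. Of the plaque and tetraspanin genes listed with the hemidesmosome, 3 of 7 were higher in OS and none was lower, against 7.17 and 10.3% of named genes: Plec, the plectin that links beta4 to keratin (1.55), Cd151, a tetraspanin that binds laminin receptors (0.88), and Cd82 (0.81). Col17a1, the transmembrane collagen of the hemidesmosome, was 4.87 to 5.32 in OS and 5.02 to 5.28 in CSE. These values were as low as those of Itgad (4.73 to 5.37 over all samples), which no array showed well above background, and so may give no level.

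**Figure D2:**
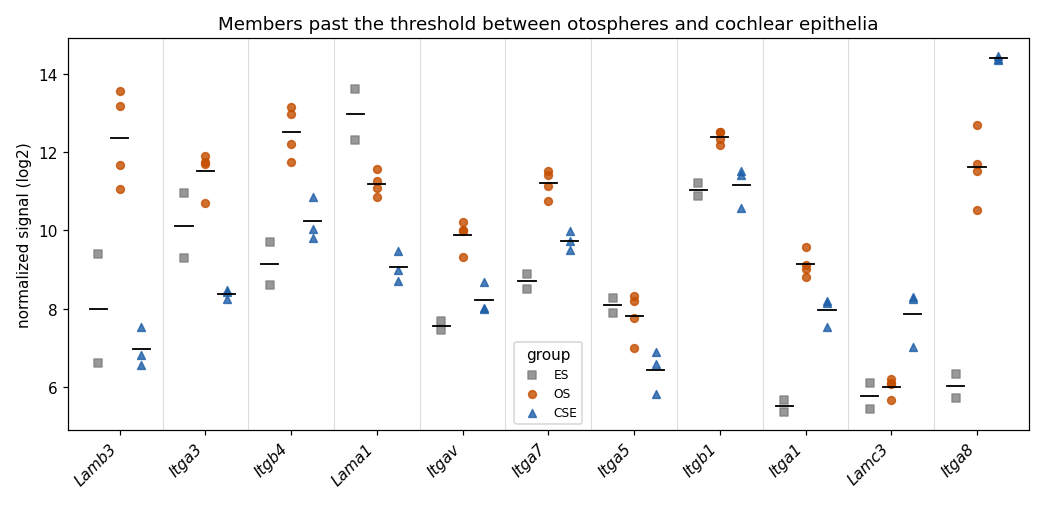
Normalized signal (log2) of 11 of the 12 genes that differed between OS and CSE, ordered by the difference. Each point is 1 sample (grey squares ES, orange circles OS, blue triangles CSE) and bars are group means. For the 9 genes to the left every OS point lies above every CSE point, and for Lamc3 and Itga8 every OS point lies below.

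The laminin-binding alpha chains Itga3 and Itga7, which pair with beta1, were higher in OS, while Itga6, which can pair with beta1 as well as beta4, did not pass the threshold. Itga3, whose receptor binds kalinin and the laminins of Lama5, was 11.74, 10.69, 11.89 and 11.69 in OS and 8.42, 8.25 and 8.49 in CSE. The difference of 3.12 ± 0.41 (SE, n = 4 and 3; adjusted p = 0.00185, limma) was 8.69-fold, the second in size. Itga7, a laminin receptor best known from muscle, was 11.14, 10.74, 11.52 and 11.41 in OS and 9.99, 9.72 and 9.49 in CSE. No OS sample reached down to the CSE range, and the difference was 1.47 ± 0.23 (adjusted p = 0.00411).

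Itgb1, the shared beta chain of most matrix receptors, was 12.51, 12.50, 12.33 and 12.17 in OS and 11.51, 11.42 and 10.56 in CSE. It was higher in OS by 1.21 ± 0.24 (adjusted p = 0.014), and a second probe gave a like size without passing (1.33, adjusted p = 0.131). The alpha genes higher in OS, Itga1, Itga3, Itga5, Itga7 and Itgav, encode chains that can pair with beta1. So do Itga8, which was lower in OS, and Itga6, which did not pass, so this pairing does not set the higher genes apart. Itgav, which forms receptors for vitronectin, fibronectin and latent TGF-beta, was 9.98, 9.33, 10.21 and 10.01 in OS and 8.68, 7.98 and 8.01 in CSE. The difference was 1.66 ± 0.26 (adjusted p = 0.00419), and its second probe gave 1.82 (adjusted p = 0.000747). The other beta chains that pair with alphav, those of Itgb3, Itgb5, Itgb6 and Itgb8, did not pass the threshold.

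Itga1, of the collagen receptor alpha1 beta1, was 9.12, 8.80, 9.59 and 9.02 in OS and 8.16, 8.18 and 7.54 in CSE. It was higher by 1.17 ± 0.24 (adjusted p = 0.0152), while its dimmer probe gave 0.53 (adjusted p = 0.225). The call was lost without CSE3 (0.96, adjusted p = 0.0597), with signals scaled to the 75th percentile of each array (adjusted p = 0.13) and within the first slide (adjusted p = 0.159). Itga5, of the fibronectin receptor, was 7.75, 6.99, 8.20 and 8.32 in OS and 6.59, 5.82 and 6.89 in CSE. Its highest CSE sample lay just under its lowest OS sample, and the difference of 1.38 ± 0.36 (adjusted p = 0.0431) held in only 10 of 20 alternative analyses. Leaving out any sample other than OS3 ended the call, with adjusted p-values of 0.0532 to 0.136. Fn1, the fibronectin gene, was higher in OS by 1.33 (adjusted p = 0.0358).

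Lama1, the alpha chain of the laminin of the early embryo, was 11.26, 11.57, 10.84 and 11.07 in OS and 8.71, 8.98 and 9.47 in CSE. The difference of 2.13 ± 0.33 (SE, n = 4 and 3; adjusted p = 0.00414, limma) was 4.39-fold, and the 4 OS samples were close together. In ES it was 12.30 and 13.62, and of the 10 genes higher in OS than in CSE it alone was lower in OS than in ES by the test (-1.77, adjusted p = 0.00745).

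Itga8 had the largest difference in the opposite direction. Its chain pairs with beta1, binds nephronectin, and is known from the apical surface of hair cells. It was 12.69, 11.53, 11.70 and 10.51 in OS and 14.45, 14.38 and 14.35 in CSE. The OS samples were all lower and far more spread than the CSE samples, and the difference was -2.79 ± 0.43 (SE, n = 4 and 3; adjusted p = 0.00395, limma), which is 6.91-fold lower in OS. Npnt, which encodes nephronectin, was lower in OS (difference -1.42, adjusted p = 0.02). The mean level of the hair cell list was also lower in OS, with -1.53 to 0.579 against 1.46 to 1.85 in CSE. Within OS it ran differently from Itga8, since OS6 had the lowest Itga8 signal and the highest hair cell level. The supporting cell list was lower in OS as well, with -0.93 to -0.53 in OS and 1.46 to 1.98 in CSE. The mesenchyme list, with -2.15 to 1.9 in OS and 1.8 to 2.31 in CSE, was lowest in OS6 like Itga8. So were the endothelial and macrophage lists. The part of these cells was not tested.

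Lamc3, which encodes a laminin gamma chain, was 6.08, 5.67, 6.20 and 6.11 in OS and 8.25, 7.02 and 8.29 in CSE. The difference was -1.84 ± 0.33 (adjusted p = 0.00828), and the OS values were near those of ES (6.10 and 5.43). The endothelial and macrophage lists were also higher in every CSE sample than in every OS sample. The same held for the hair cell, supporting cell, glia and platelet lists, and the part of these cells was not tested.

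Among genes that did not pass, 4 still had groups that did not overlap, all lower in OS. Itga11, of a collagen receptor of mesenchymal cells, was 8.80, 9.93, 7.64 and 6.16 in OS and 10.67, 10.71 and 11.09 in CSE, and the difference of -2.69 had an adjusted p of 0.0911. It passed without OS3 (-3.29, adjusted p = 0.0331). Itgb3, the beta chain shared by the platelet receptor and alphav beta3, was 9.57, 9.37, 9.57 and 8.67 in OS and 11.59, 10.73 and 10.47 in CSE (-1.63, adjusted p = 0.0731). It passed without either ES sample (adjusted p = 0.0168 each), which changes only the shared estimate of the spread, and its dimmer probe gave -0.33 (adjusted p = 0.471). Itga2b, the other chain of the platelet receptor, had overlapping groups (5.78 to 6.27 in OS, 5.71 to 6.31 in CSE), while Pf4, a platelet gene, was lower in OS (difference -5.16). Lamc1, the gamma chain of most laminins, was 12.71 to 13.27 in OS and 13.40 to 14.38 in CSE (-0.75, adjusted p = 0.154). The last, Itgb2l, had no array with a signal well above background, and the same held for Itgad and Itgax.

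The laminin genes Lamb1, Lamb2 and Lama5 gave overlapping values in OS and CSE. Lamb1 differed by 0.14, with an interval from -0.28 to 0.56, and Lamb2 by 0.05, with an interval from -0.45 to 0.55. Lama5, the alpha chain of most epithelial basement membranes, was 13.31 to 14.61 in OS and 13.24 to 13.33 in CSE (0.82, adjusted p = 0.155), and passed without OS3 (1.09, adjusted p = 0.0206). The brightest probe of the epithelial integrin gene Itgb6 overlapped as well, with 9.83 to 10.96 in OS and 10.43 to 10.59 in CSE. The interval of its difference ran from -0.57 to 0.59. The dimmer Itgb6 probe did not overlap, with 7.65 to 7.97 in OS and 6.80 to 7.43 in CSE. Its difference of 0.65 did not pass (adjusted p = 0.0552, limma). No leukocyte integrin passed in this comparison, although 6 of 9 macrophage markers did. The brightest Itgam probe was 11.97 to 14.57 in CSE and 12.18 to 14.07 in OS, but also 11.65 and 11.80 in ES, and the other 2 Itgam probes were at most 7.20 in every sample, so the level of Itgam is uncertain.

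**Figure D3:**
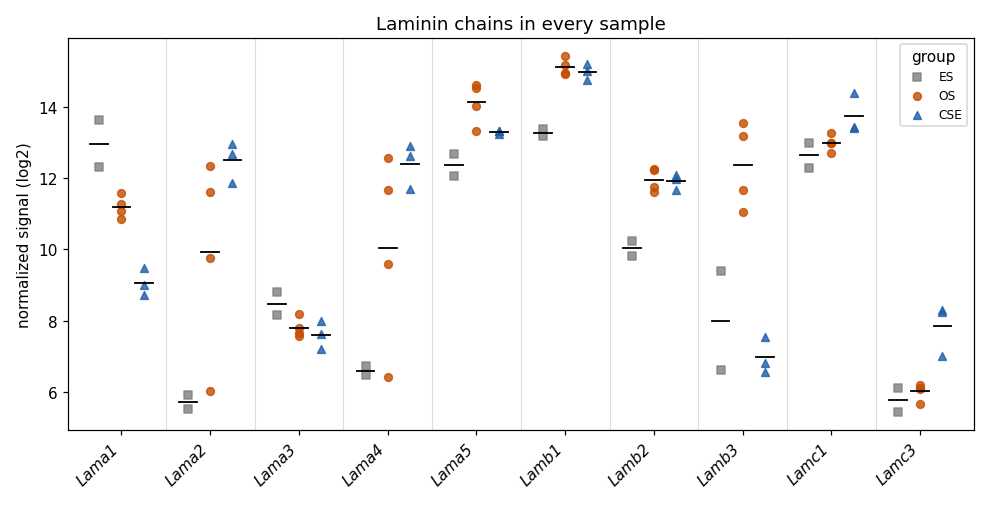
Normalized signal (log2) of 10 laminin chain genes in every sample (grey squares ES, orange circles OS, blue triangles CSE, bars group means), ordered by chain. Levels of different genes are not comparable. Lamb1 and Lamb2 overlap between OS and CSE, Lamb3 does not, and the OS samples of Lama2 and Lama4 run from near the ES level to near the CSE level.

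The otosphere samples were not alike. The range over the 4 samples was above 3 on the log2 scale for 4 genes, Lama2, Lama4, Itga11 and Itga4, which is 11.1% of the 36, against 3.04% of all named genes. Lama2, the alpha chain of the laminin of muscle and nerve, was 12.35 in OS3, 11.61 in OS1 and OS2, 9.75 in OS4 and OS5 and 6.04 in OS6. The CSE samples had 12.95, 12.67 and 11.87, and the ES samples, not well above background, had 5.52 and 5.92. OS3 thus lay within the CSE range and OS6 close to ES. Lama4, the alpha chain of mesenchymal and vessel laminins, ran in the same order with 12.55, 11.66, 9.58 and 6.41, against 11.68 to 12.88 in CSE. For neither gene did the mean of OS differ from CSE by the test (adjusted p = 0.297 and 0.334).

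These samples kept one order in the mesenchyme markers. Relative to each gene's mean over OS, the mean of the 9 mesenchyme markers was 1.71 in OS3, 0.917 in OS1 and OS2, -0.275 in OS4 and OS5 and -2.35 in OS6, and 7 of the 9 followed this order, among them Tbx18, Col1a2 and Col3a1. Of the 36 genes 4 followed it too: Lama2, Lama4, Itga11 and, over a narrow range, Itgb5. Nid1, which encodes the nidogen that links laminin to collagen IV, was 14.19, 13.38, 11.30 and 8.10 in the same order. Of all named genes 9.22% followed that order, and 4 of 36 is 11.1%, so the count is near the background. The opposite order was followed by 6 genes (16.7%, against 13.6% of named genes), among them Lamb3, Itgb4, Itga4, Itga5 and Itgb7. Itga4, of the receptor for fibronectin and Vcam1, was 6.53, 6.99, 9.37 and 9.68 from OS3 to OS6, which spanned the CSE range of 8.47 to 8.95. The hair cell list ran the same way as these, with 7 of its 8 genes. OS3 and the averaged OS1 and OS2 were on the first slide and the others on the second, so that slide and order cannot be told apart between those pairs of samples. On each slide by itself the mesenchyme level still differed, by OS3 over OS1 and OS2 on the first and by OS4 and OS5 over OS6 on the second. The order was chosen after the values were seen, and no test was made of it.

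**Figure D4:**
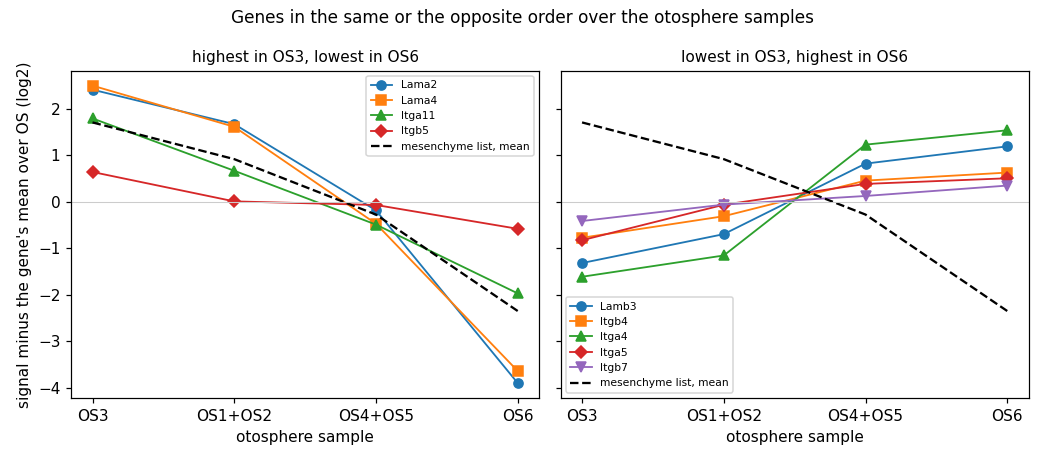
Signal of each otosphere sample less the mean of that gene in OS (log2), with the samples placed in the order of the mesenchyme markers. Lines join the points of 1 gene, and the dashed line is the mean of 9 mesenchyme markers, from 1.71 in OS3 to -2.35 in OS6. Left, 4 genes in that order. Right, 5 genes in the opposite order, with Lamb3 and Itga4 over the widest ranges.

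Slide by slide, the OS samples of the second slide lay above those of the first without overlap for 14 of the 36 genes and below for 8, against 27.8 and 17.5% of all probes. With slide as a block, 10 genes were higher in OS than in CSE and 3 lower, against 2449 and 3143 of all 47997 probes. Itga9 was gained among the lower genes (-0.84, adjusted p = 0.0199). Within the first slide alone, with 2 OS and 2 CSE samples, 4 were higher and 1 lower, against 1043 and 1341 of all probes. The lower gene there was Itga4 (-1.95, adjusted p = 0.0363), which is not among the 12, and its OS samples on the second slide, 9.37 and 9.68, lay above CSE3 at 8.75. Itga8 and Lamc3 did not pass within the first slide (adjusted p = 0.0605 and 0.141). The 12 genes kept their sign on the second slide.

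Against the stem cells, more of these genes were higher than lower in otospheres and in epithelia alike. In OS 17 of the 36 genes were higher than in ES (12.1% of all probes, 18.4% of named genes), and in CSE 17 were higher (13.2 and 20.9%). In OS 3 were lower (15.6 and 20.4%), and in CSE 5 (15.6 and 20%). Both comparisons share the 2 ES samples, so their calls are not independent. The median difference was 1.35 in OS and 1.1 in CSE, against -0.03 and -0.06 over all probes. The groups did not overlap for 26 genes in OS (46.2% of all probes) and 31 in CSE (52.2%). A test over the 3 groups at once passed for 26 of the 36 genes, against 33.8% of all probes. For overlap and for this test, no share over named genes was taken.

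Several genes had no signal well above background in ES. Itgb6, whose receptor activates TGF-beta in epithelia, was 4.78 and 4.97 in ES, and was at least 35.5-fold higher in OS and at least 35.2-fold higher in CSE. The bound sets the bright group's mean against the lowest level well above background or, where that is higher, the probe's own signal in ES. A second, dimmer Itgb6 probe gave lower bounds of 5.32-fold and 3.38-fold. Itgb8, another activator of TGF-beta, was at least 6.20-fold higher in OS and 4.46-fold in CSE, and Itga4 at least 6.79-fold and 10.1-fold. The second Itga4 probe was dim throughout and passed in neither comparison, with differences of 0.36 in OS and 0.23 in CSE (adjusted p = 0.385 and 0.624), so the Itga4 result rests on 1 probe. Lama2, for which the signal in ES was the higher of these levels, was at least 109.7-fold higher in CSE, with an adjusted p of 0.00972. Itga8 was 5.72 and 6.33 in ES and was higher by 5.58 in OS and 8.37 in CSE (adjusted p = 7.34e-05 and 1.2e-05, limma). Itga9, whose chain binds tenascin, was higher by 2.03 in OS and 2.79 in CSE. Lamb1 and Lamb2 were higher by 1.85 and 1.93 in OS, and by 1.70 and 1.88 in CSE.

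Of the 4 beta chains that bind RGD sites, 3 were higher in OS and 4 in CSE than in ES. Of all named genes 18.4 and 20.9% were higher, and of the 36 members 17 in each comparison. Itgb1 was higher in OS by 1.34 (adjusted p = 0.00646), and its difference in CSE was 0.13, with an adjusted p of 0.806. Itgb4 was higher in OS by 3.38 (adjusted p = 0.000944) and its difference in CSE was 1.09 (adjusted p = 0.154).

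A few members were highest in stem cells. Itgb7, which pairs with alpha4 and alphaE on leukocytes, was 10.43 and 11.46 in ES, 5.89 to 6.65 in OS and 5.85 to 6.68 in CSE. The differences were -4.64 in OS and -4.70 in CSE. Itgal, another leukocyte chain, was 7.68 and 8.28 in ES, and its differences were -1.55 and -1.56. Lama1 was lower in OS and in CSE than in ES, with differences of -1.77 and -3.91, so that OS lay between the other groups. Itga3 and Itga5 were lower in CSE than in ES, with differences of -1.73 and -1.65. Neither passed the threshold between OS and ES, with differences of 1.39 and -0.27 (adjusted p = 0.0558 and 0.69, limma). Itga3 was thus not highest in ES, with 10.95 in ES1, 9.29 in ES2 and 10.69 to 11.89 in OS. Without ES1 its difference between CSE and ES was -0.90.

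Genes that work with these receptors were set beside them, from lists of known function. Of 25 focal adhesion genes, 9 were higher and 3 lower in OS than in CSE, where 7.17% of all named genes were higher and 10.3% lower. The higher ones included Ptk2b, a kinase related to FAK (3.47), Actn1, an actin crosslinker (2.46), Parva, the parvin bound to integrin-linked kinase (2.01), and Bcar1, the p130Cas scaffold (1.91). The lower ones were Tln2, a talin (-1.20), Fermt3, the kindlin of blood cells (-0.70), and Parvg, the parvin of blood cells (-0.66). Of 24 other basement membrane genes, 4 were higher and 5 lower. Ntn1, the netrin (2.23), and the collagen IV chains Col4a6 (2.02), Col4a5 (1.53) and Col4a3 (1.21) were higher, and Frem2 (-3.21), Frem1 (-3.01), Smoc2 (-2.33), Npnt (-1.42) and Egflam (-1.16) were lower. Of 21 integrin ligand genes, 5 were higher, with Ccn2 (3.58), Thbs1 (3.53) and Tgfb1 (1.39) ahead, and 1 was lower, the vessel gene Icam2 (-4.70). The medians of these differences were 0.88 for focal adhesion, 0.11 for basement membrane and 0.49 for ligands, against 0.02 over all probes.

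Promoter sequences from RefSeq (GRCm38.p6), from 250 bases before to 50 after the annotated start, were at hand for 7 of the 12 genes that differed between OS and CSE. They are printed for Lamb3, Itga3 and Itgb1, as genes higher in OS that encode a kalinin chain and a receptor for it, and for Itga8, the gene with the largest fall. The windows are chr1:193301744-193302043 (plus strand) for Lamb3, chr11:95076665-95076964 (minus strand) for Itga3, chr8:128685404-128685703 (plus strand) for Itgb1 and chr2:12301895-12302194 (minus strand) for Itga8. For Lamb3 and Itga3 the table held 2 starts, and the upstream start is shown. Capitals mark matches, on either strand, to TGANTCA (AP-1 type), GGAATG (TEAD type) and GGGCGG (Sp1 type).
Lamb3: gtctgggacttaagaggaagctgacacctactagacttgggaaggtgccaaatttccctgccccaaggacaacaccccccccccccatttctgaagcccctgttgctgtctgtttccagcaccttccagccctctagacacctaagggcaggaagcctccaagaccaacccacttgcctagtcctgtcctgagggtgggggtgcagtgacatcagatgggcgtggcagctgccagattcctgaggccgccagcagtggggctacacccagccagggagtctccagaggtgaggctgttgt
Itga3: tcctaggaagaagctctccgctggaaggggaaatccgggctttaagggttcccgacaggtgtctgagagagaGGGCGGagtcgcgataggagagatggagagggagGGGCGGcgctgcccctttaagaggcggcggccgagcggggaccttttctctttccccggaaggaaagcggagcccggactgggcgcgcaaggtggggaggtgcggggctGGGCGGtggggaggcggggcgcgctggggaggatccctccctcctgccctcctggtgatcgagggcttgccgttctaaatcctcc
Itgb1: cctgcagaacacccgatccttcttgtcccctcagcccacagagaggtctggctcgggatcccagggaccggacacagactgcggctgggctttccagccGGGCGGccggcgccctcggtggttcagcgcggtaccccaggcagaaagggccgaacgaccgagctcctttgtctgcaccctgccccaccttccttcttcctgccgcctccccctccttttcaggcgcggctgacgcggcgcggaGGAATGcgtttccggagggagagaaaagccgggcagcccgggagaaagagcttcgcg
Itga8: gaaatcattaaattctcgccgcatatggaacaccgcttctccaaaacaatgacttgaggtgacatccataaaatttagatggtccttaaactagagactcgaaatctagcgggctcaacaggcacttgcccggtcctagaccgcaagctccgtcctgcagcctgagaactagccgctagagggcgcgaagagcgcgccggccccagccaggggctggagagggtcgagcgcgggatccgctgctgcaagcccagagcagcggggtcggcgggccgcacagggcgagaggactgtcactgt
In the Itga3 window there were 3 matches to GGGCGG, and in the Itgb1 window 1 to GGGCGG and 1 to GGAATG. The Lamb3 and Itga8 windows shown held none of these letters. Over the 32851 promoters of the table, 35.7% held GGGCGG, 14.7% GGAATG and 7.81% TGANTCA. Of the 7 genes with a promoter, 4, 2 and 1 had a match to these in any of their windows. These counts are per gene, whereas the percentages are per promoter, so a gene with 2 windows has more chances of a match. The GGAATG match of Lamb3 and the TGANTCA match of Itga3 were in their second windows only, which are not shown.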

How the data were processed

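Total RNA of 11 samples was labelled with Cy3 and hybridized to 1-colour Agilent arrays. The scanner files, as deposited by the authors, held median intensities of the spots and of the background around them, extracted with Feature Extraction 10.7.3.1. Log2 values deposited by the authors in a table, background-corrected and quantile-normalized with limma and filtered, served as an alternative. Here median intensities were corrected with normexp (offset 16), quantile-normalized and averaged per probe with limma 3.58.1 in R 4.3.3. Probes were kept where they exceeded by 10% the 95th percentile of negative control spots on 2 or more arrays (47997 of 55681). Symbols came from transcript accessions in RefSeq (GRCm38.p6). A linear model over the 3 groups with empirical Bayes variances gave contrasts and an F-test, with Benjamini-Hochberg adjustment, and was tested on simulated data. A fold bound was given where every array of a group lacked signal well above background. Members and lists were chosen with earlier results of these data known. Every member could be named, with values per sample for those that differed between OS and CSE and their partner chains, and from each list the counts and the largest differences. Alternatives covered offset, scaling, filter, slide, replicate block, averaging of near-identical arrays, probe choice and leaving out samples. Counts cover all 36 genes, and the values of 1 of them are not reported here. Array number limits the precision.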

Additional observations from a re-analysis of the deposited data

Results flagged for a closer look

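There were 2 values that stood far from the other otosphere samples by Dixon's criterion for 4 samples, out of 36 genes examined, and chance alone gives about 1 in 20. Itga3 in OS3 was 10.69, against a mean of 11.77 in the other OS samples, and still lay above every CSE sample. Itga2b in the average of OS4 and OS5 was 6.27, against a mean of 5.83 in the others.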

How the results depend on the processing

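Of the 12 genes that differed between OS and CSE, 4 (Lamb3, Itga3, Itgb4 and Lama1) passed in all 20 alternative fits, and Itga7, Itga8, Itgav, Itgb1 and Lamc3 in 19, failing within the first slide only. Itga1 lost its call in 3 fits and Itga5 in 10. None of the 54 differences called in the 3 comparisons changed sign in any fit. Of those not called, 13 of 24 for OS against CSE, 8 of 16 for OS against ES and 5 of 14 for CSE against ES took the opposite sign in at least 1 fit without being called in it, and 5, 6 and 6 passed in at least 1. Within the first slide, 4 genes were higher and 1, Itga4, lower in OS than in CSE. With every array as a separate sample, 4 were lower (Itga11 and Itgb3 gained), against 4276 of all 47997 probes. With the replicate number as a block over the 11 arrays 9 were higher and 4 lower (Itga4 and Itga9 gained), against 2105 and 2465 probes. The cause of these changes was not tested. Of 7 pairs of arrays with the same replicate number, 1 had a correlation of deviations over 0.1 (range -0.39 to 0.36). These deviations were taken from means of few arrays and so are tied within a group. Whether the replicate numbers pair the samples therefore cannot be told. Leaving out 1 sample at a time gave 11 to 18 genes higher and 3 to 6 lower in CSE than in ES. The counts of genes higher in CSE than in ES were lowest (11) without ES2 or without CSE1, and those lower were lowest (3) without ES1 or without CSE2. Scaling to the 75th percentile of each array moved the median of all probes to -0.31 for OS against ES and -0.28 for CSE against ES. Only 2 ES, 3 CSE and 4 OS samples limit what differences can be seen, and probes near background, such as those of Itgad, Itgax and Itgb2l, give no level.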
